A study of Homo sapiens with 3 samples.

Results

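The MYC, MAX and MXD network is a set of transcription factors that share a basic helix-loop-helix leucine zipper (bHLHZ), the part with which they pair and bind DNA. Its 10 members considered here are MYC, MYCN, MYCL, MAX, MXD1, MXD3, MXD4, MXI1, MNT and MLX, a list drawn up by gene family with earlier results of these data known. Each member was read from a probe set that the platform annotation gives to that gene alone, taking the brightest one on average where there were several. This gave values for 9 members of 22395 genes measured in the same way. MXD4 has no value, because its probe set also lists a second gene.

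Gene expression was measured on Affymetrix arrays in HEK293T, a widely used cell line of human embryonic kidney origin into which SV40 large T antigen was introduced. Cells had been infected with lentivirus and kept in puromycin to obtain stable expression of the TRAF7 G536S mutant or of wild-type TRAF7, or to carry the empty pCDF1 vector. All 3 groups share the vector, the infection and the selection, and each is 1 array. Whether the selected cells were pools or single clones, and which promoter drives TRAF7 in pCDF1, is not given in the sources used here. No group has replicates, so each difference below compares 2 arrays, carries no p-value and no error, and holds the difference between cultures as well as between constructs. Precision is limited by the number of arrays.

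MAX is the common partner of the network. MYC, MYCN and MYCL pair with MAX and activate genes of growth, ribosome production and the cell cycle from DNA sites called E-boxes. MXD1, MXD3, MXD4, MXI1 and MNT also pair with MAX at the same sites but recruit SIN3 and histone deacetylases, and so repress. MLX takes the place of MAX for the glucose-sensing factors MLXIP (MondoA) and MLXIPL (ChREBP), and also pairs with some MXD proteins and MNT.

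TRAF7, the ubiquitin ligase that was introduced, read 7.35 on the G536S array, 8.11 on the wild-type array and 5.66 on the empty vector array, in log2 units of robust multi-array average (RMA) level. G536S differed from wild type by -0.76 for TRAF7 itself. Differences between these 2 arrays therefore hold the TRAF7 level as well as the mutation, and the 2 cannot be told apart. The upper part of the values was lower on the empty vector array: 75th percentiles over all probe sets were 1.86 for G536S, 1.85 for wild type and 1.73 for the empty vector. Among genes whose mean reached that of the median gene (1.21), the median difference from the empty vector was 0.10 with G536S and 0.08 with wild type. Of 8 markers of HEK293 cells, 6 were at or above that median gene, among them the neurofilament gene NEFL (5.62, 6.26 and 6.01 on the G536S, wild-type and empty vector arrays) and the intermediate filament gene INA (6.35, 5.91 and 6.25). The keratin gene KRT8 (0.87, 0.85 and 0.98 on the same arrays) and the neurofilament gene NEFM (0.99, 0.89 and 1.16) were below it. The intermediate filament gene VIM read 4.74 with G536S, 5.10 with wild-type TRAF7 and 4.34 with the empty vector, and was 0.75 higher with wild type than with the empty vector. NEFL differed by -0.64 between G536S and wild type. Of all genes, 2.73% were at least 1.5-fold higher between the arrays compared for VIM, and 0.929% lower between those compared for NEFL. VIM and NEFL were the 2 of the 8 HEK293 markers past 1.5-fold, each in 1 comparison. The sum over the 8 was 26.1 with G536S, 26.3 with wild-type TRAF7 and 26.4 with the empty vector, in which members that differ in opposite directions offset each other. The part of these marker differences in the results below was not tested. Of 5 measured mature kidney, 4 leukocyte, 4 fibroblast and 4 endothelial markers, 1 was above the median gene, the collagen gene COL1A1 (2.47, 2.60 and 2.59 on the G536S, wild-type and empty vector arrays). The brightest others, NPHS1, SLC12A3, PTPRC, ITGAM, COL1A2, CDH5 and VWF, read 0.83 to 1.09 on every array, and the summed levels of each list differed by at most 0.3 between arrays. In bulk RNA, fewer cells of a kind and less RNA per cell cannot be told apart.

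MYC, the founding activator of the network, was lower with the TRAF7 G536S mutant than with either other construct. Its level was 5.58 on the G536S array, 6.16 on the wild-type array and 6.37 on the empty vector array. The G536S array stood apart at the low end, and the wild-type and empty vector arrays lay closer together. G536S differed from the empty vector by -0.79, which is 1.72-fold lower, and from wild type by -0.58, which is 1.49-fold lower. Wild type differed from the empty vector by -0.21. These 3 differences come from 3 arrays and are not separate support for each other.

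MYC was the 1 member of 9 that was at least 1.5-fold apart between G536S and the empty vector. Of all genes, 1.07% were at least 1.5-fold lower in that comparison and 3.05% at least 1.5-fold higher. After quantile normalization of the deposited values the same shares were 2.25% and 1.59%. Of the 967 genes whose mean level lay within 0.5 of that of MYC, 5, MYC included, were at least as low as MYC with G536S against the empty vector, which is 0.517%. Against wild type, 12 of these 967 genes (1.24%) were at least as low as MYC, and with wild type against the empty vector 154 (15.9%) were.

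**Figure D1:**
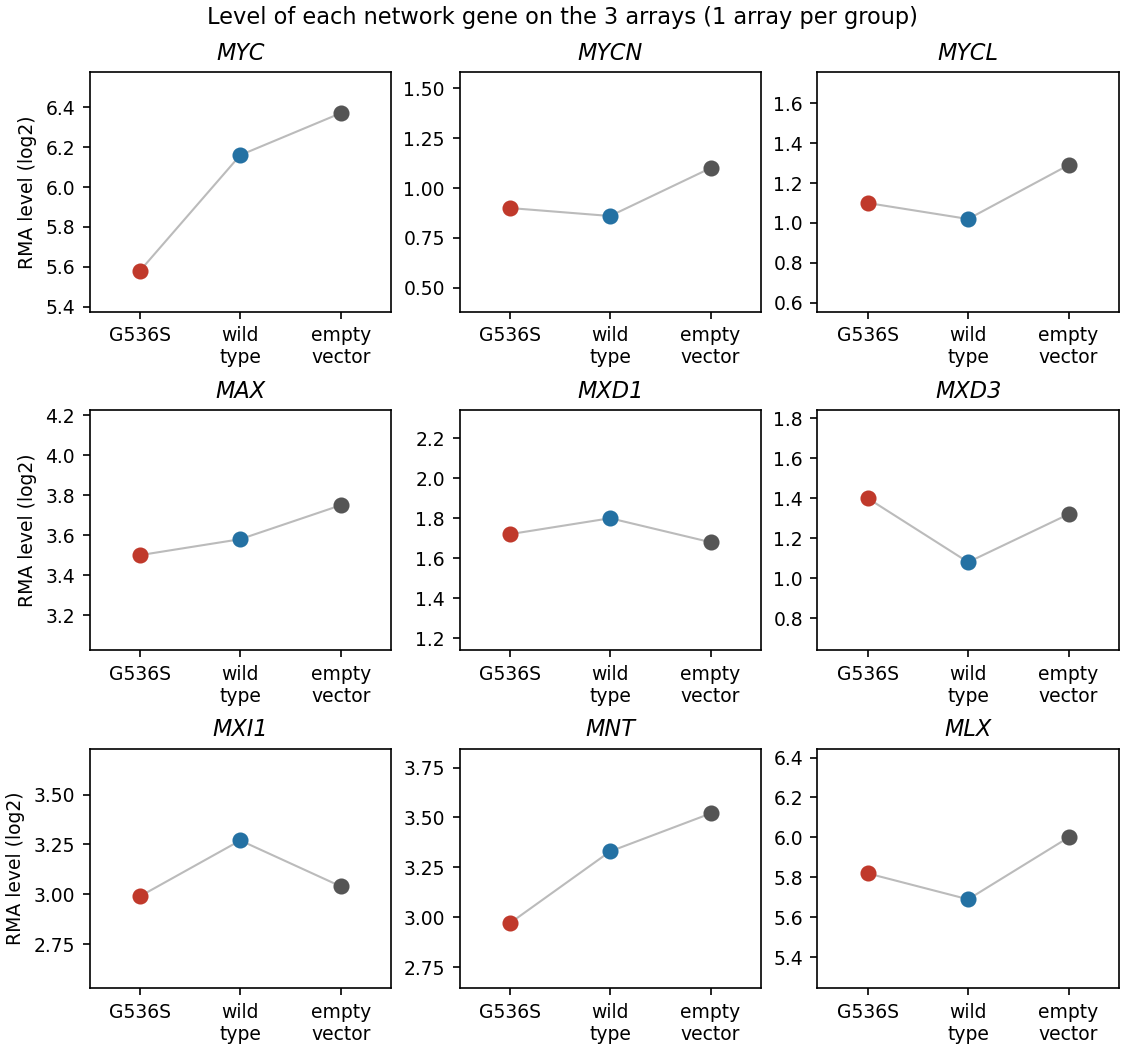
RMA level (log2) of each measured network gene on the TRAF7 G536S, TRAF7 wild-type and empty vector arrays, 1 point per array, joined by a line within a gene. Each panel spans the same number of log2 units with its own centre, so slopes can be compared and heights cannot; MYC has the widest range (0.79), followed by MNT (0.55), and MXD1 the narrowest (0.12).

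MYCN and MYCL, the paralogs of MYC best known from neural and lung tumours, were near the lower limit of these arrays. MYCN read 0.90 with G536S, 0.86 with wild-type TRAF7 and 1.10 with the empty vector. MYCL read 1.10 with G536S, 1.02 with wild-type TRAF7 and 1.29 with the empty vector. Both genes had means (0.95 and 1.14) below the median gene, where differences are compressed. The empty vector array was the highest for both, and the G536S and wild-type arrays differed by 0.04 for MYCN and 0.08 for MYCL. Against the empty vector the differences were -0.21 for MYCN and -0.19 for MYCL with G536S, and -0.24 for MYCN and -0.26 for MYCL with wild type.

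MAX, the partner that the MYC and MXD proteins need for DNA binding, differed little. It read 3.50 on the G536S array, 3.58 on the wild-type array and 3.75 on the empty vector array. The order of the arrays was that of MYC, over a narrower range of 0.24. G536S differed from the empty vector by -0.24 and from wild type by -0.08. Among 1639 genes within 0.5 of its mean level, 14.2% were at least as low as MAX with G536S against the empty vector.

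The repressor MNT, which is found in most cell types and opposes MYC for MAX, had the second largest range of the members. It read 2.97 with G536S, 3.33 with wild-type TRAF7 and 3.52 with the empty vector, so its arrays stood in the same order as those of MYC. G536S differed from the empty vector by -0.55 (1.46-fold lower), just inside the 1.5-fold limit that was used for counting. It differed from wild type by -0.36. Of 1680 genes of like level, 59 (3.51%) were at least as low with G536S against the empty vector. Quantile normalization gave -0.69 and cyclic loess -0.68 for this difference, both past 1.5-fold. The order shared with MYC was also that of MAX and, outside the members, of MLXIP. How many of all genes have this order was not counted.

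The MXD genes, whose products repress MYC sites in cells that leave the cell cycle, did not share one pattern. MXI1, also called MXD2, read 2.99 with G536S, 3.27 with wild-type TRAF7 and 3.04 with the empty vector. Its wild-type array was the highest, and G536S differed from it by -0.28. MXD3, best known for its expression in S phase, read 1.40 with G536S, 1.08 with wild-type TRAF7 and 1.32 with the empty vector. Here the wild-type array was the lowest, and G536S differed from it by 0.32. MXD3 lies close to the median gene (mean 1.26). In that comparison 2.25% of the 13162 genes of like level, and 5.54% of all 22395 genes, were at least as high as MXD3.

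MXD1 was read by 2 probe sets that went different ways. The one used here, with the higher mean, read 1.72 with G536S, 1.80 with wild-type TRAF7 and 1.68 with the empty vector, a range of 0.12. The second read 1.14 with G536S, 0.87 with wild-type TRAF7 and 1.10 with the empty vector. Its mean of 1.04 is below the median gene, where differences are compressed. Wild type differed from the empty vector by 0.12 on the first probe set and by -0.23 on the second, so no direction can be given for MXD1.

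MLX, the partner of MLXIP and MLXIPL, was highest with the empty vector. It read 5.82 with G536S, 5.69 with wild-type TRAF7 and 6.0 with the empty vector. Wild type differed from the empty vector by -0.30, and G536S by -0.17. Of the 1032 genes within 0.5 of its mean level, 92 (8.91%) were at least as low with wild type against the empty vector.

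**Figure D2:**
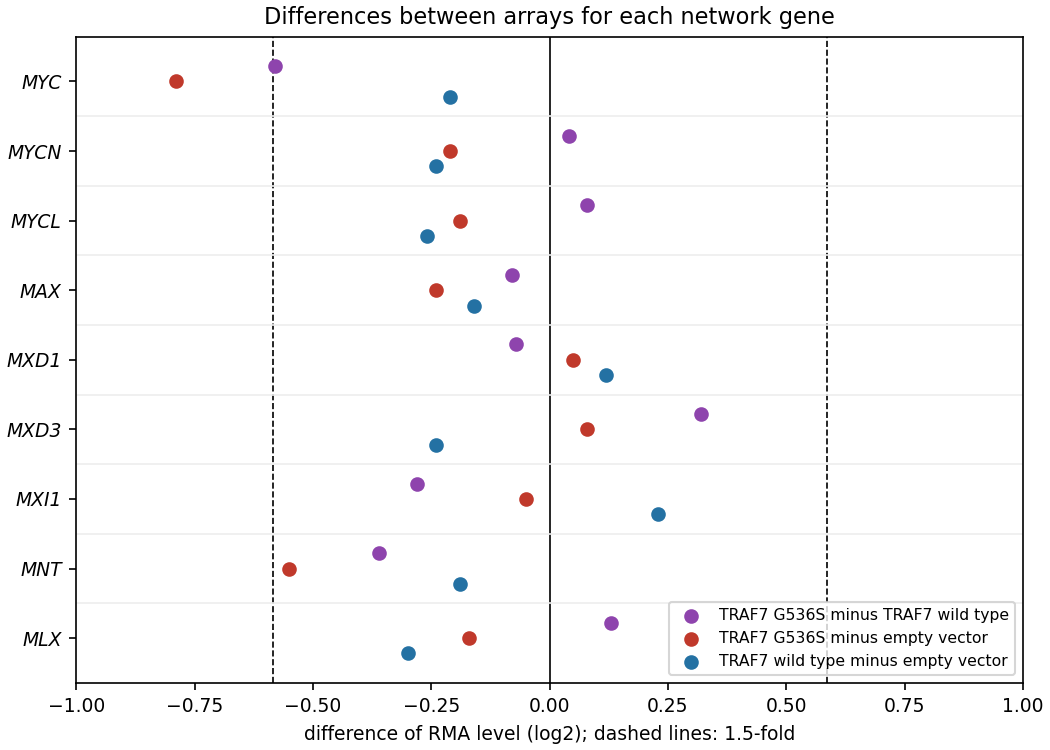
Difference in RMA level (log2) between arrays for each measured network gene, with 1 point for each of the 3 comparisons and dashed lines at 1.5-fold. MYC with G536S minus empty vector (-0.79) is the one point past a dashed line, and MYC with G536S minus wild type (-0.58, 1.49-fold) lies next to it.

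Taken over the network, no member was 1.5-fold apart between wild type and the empty vector, a comparison in which 0.911% of all genes were at least 1.5-fold lower and 2.73% higher. Likewise none was 1.5-fold apart between G536S and wild type, where 0.929% of all genes were lower and 1.11% higher. The median of the 9 members was -0.19 for G536S against the empty vector, with 7 below 0, beside a median of 0.00 over all genes. It was -0.21 for wild type against the empty vector, also with 7 below 0. Over genes at or above the median gene, the median was 0.10 for G536S and 0.08 for wild type against the empty vector. These 2 comparisons share the empty vector array. Between G536S and wild type, which does not use that array, the median was -0.07, with 5 of 9 below 0. Of the members, 7 reached the mean of the median gene, and MYCN and MYCL did not.

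**Figure D3:**
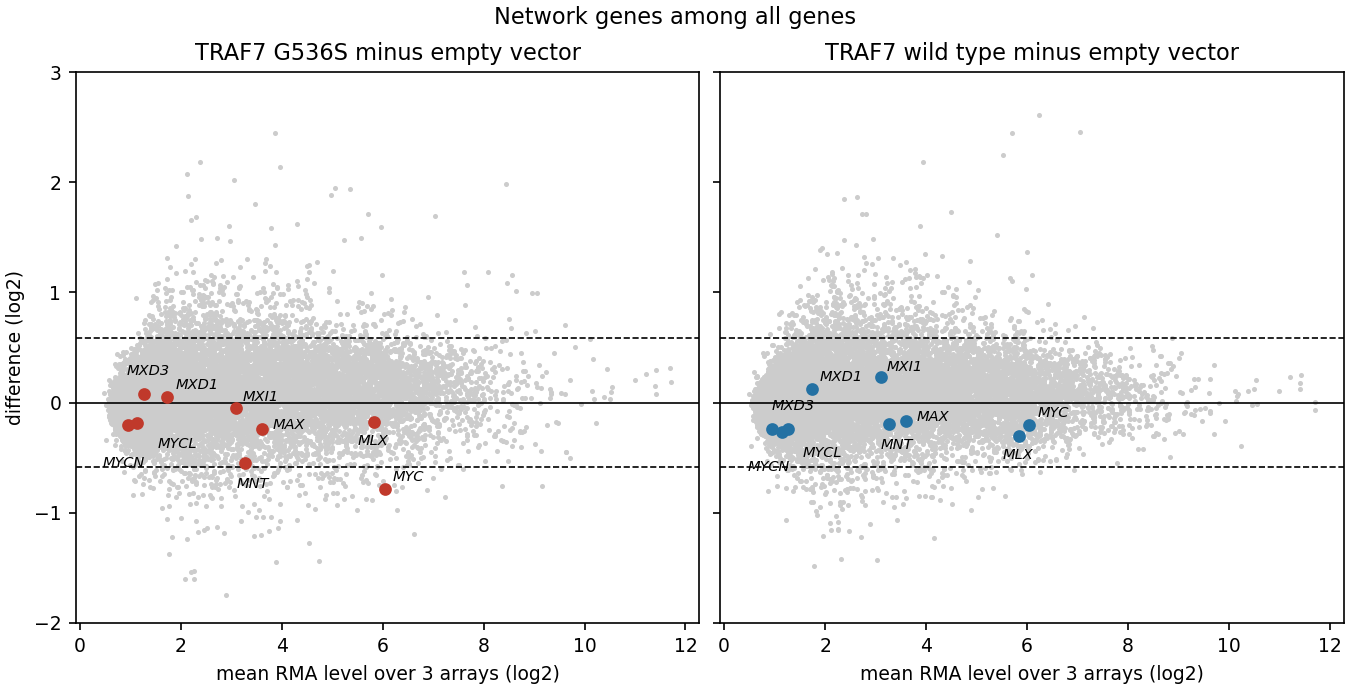
Difference (log2) of each gene between TRAF7 G536S and the empty vector (left) and between TRAF7 wild type and the empty vector (right) against its mean RMA level (log2) over the 3 arrays; grey points are all 22395 genes, coloured points the network genes, dashed lines 1.5-fold. On the left MYC lies at -0.79 at a mean level of 6.04, where few genes are as low; on the right all 9 members lie between the dashed lines.

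The network's proteins bind the E-box with the letters CACGTG, and the promoters of the members were searched for it, since network genes can carry sites for the proteins they encode. The search covered the 250 bases before each gene start in RefSeq (GRCh38.p14) and needs 1 strand, because the motif reads the same on both. Promoter sequences were at hand for 9 of the members but not for MYC, so the promoter of MYC was not searched. MNT, MLX and MXD4 had 1 match each, which is 3 of 9 genes. Over all 27305 genes with a promoter sequence, 7.73% had a match before some start. The MNT and MLX stretches are shown because both genes have values here and MNT follows the order of MYC; capitals mark the E-box, and each is read 5′ to 3′ on the gene's strand. The MNT stretch is chr17:2401221-2401280 on the minus strand, with the first E-box base 193 bases before the start. The MLX stretch is chr17:42567023-42567082 on the plus strand, with that base 50 bases before the start.
MNT: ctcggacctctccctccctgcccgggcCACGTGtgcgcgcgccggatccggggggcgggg
MLX: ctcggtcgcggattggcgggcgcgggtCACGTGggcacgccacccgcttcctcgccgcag
A match describes the letters of this window. MNT was lowest with G536S (2.97) and MLX was lowest with wild type (5.69). The part of a match in these levels was not tested.

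Other genes that pair with MLX or MAX were read next. MLXIP, the MondoA protein that senses glucose with MLX, read 4.23 with G536S, 4.43 with wild-type TRAF7 and 4.74 with the empty vector, and G536S differed from the empty vector by -0.51. Quantile normalization gave -0.66 and cyclic loess -0.64 for this difference, both past 1.5-fold. MGA, a large MAX partner with a second DNA-binding domain, went the other way: it read 5.53 with G536S, 5.61 with wild-type TRAF7 and 5.20 with the empty vector. MLXIPL, the third gene of this list, read 1.53, 1.80 and 1.30 on the same arrays. None of the 3 was 1.5-fold apart in any comparison on the deposited values.

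Of 4 targets of MLXIP and MLXIPL, ARRDC4, an arrestin-like gene induced by glucose, was at least 1.5-fold higher with G536S than with the empty vector. It read 3.22 with G536S, 2.82 with wild-type TRAF7 and 2.39 with the empty vector, a difference of 0.84 for G536S. In that comparison 3.05% of all genes, and 6.07% of those at or above the median gene, were at least 1.5-fold higher. TXNIP, the thioredoxin-binding relative of ARRDC4 that limits glucose uptake, read 3.45 with G536S, 3.52 with wild-type TRAF7 and 3.12 with the empty vector. On both TRAF7 arrays MLXIP was lower, and MLXIPL, ARRDC4 and TXNIP were higher, than on the empty vector array. KLF10 read 3.76, 4.21 and 4.06 on the G536S, wild-type and empty vector arrays. It was thus lower than with the empty vector for G536S and higher for wild type. The remaining target was below the median gene. The list median was 0.18 for G536S and 0.27 for wild type against the empty vector.

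On the deposited values, genes that MYC is known to activate did not follow MYC as a list. Of 35 such genes 28 were measured, and none was 1.5-fold apart between G536S and the empty vector. Their median was 0.10 in that comparison, with 17 of 28 above 0, which equals the median of 0.10 over all genes at or above the median gene. After quantile normalization the list median was -0.13, against -0.03 for those genes. Under that setting 1 gene of the list passed 1.5-fold, the amino acid transporter gene SLC7A5, at -0.59 (-0.41 on the deposited values). SRM, the spermidine synthase, read 9.37 with G536S, 9.72 with wild-type TRAF7 and 9.82 with the empty vector, in the order of MYC. The chaperonin subunit CCT3 read 9.13, 9.07 and 8.99 on the same arrays, in the opposite order; its difference between G536S and the empty vector was 0.14 on the deposited values and -0.03 after quantile normalization.

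CCND2, the cyclin D2 gene, was the member of this list furthest apart. It read 2.25 with G536S, 3.32 with wild-type TRAF7 and 2.49 with the empty vector, so that the wild-type array alone was high. G536S differed from wild type by -1.07, and wild type from the empty vector by 0.83. For the whole list the median was 0.06 for G536S against wild type and 0.01 for wild type against the empty vector.

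Of 11 genes that MYC is known to repress, all were measured. Of these, 7 were at or above the median gene, and the others were below it, where differences are compressed. With wild type, 1 of the 11 was 1.5-fold higher than with the empty vector, beside 2.73% of all genes. This was NDRG1, a stress-induced gene, at 1.5 with G536S, 2.26 with wild-type TRAF7 and 1.43 with the empty vector. NDRG1 and GADD45A, a DNA damage response gene at 3.97 with G536S, 4.57 with wild-type TRAF7 and 4.16 with the empty vector, were the 2 at least 1.5-fold lower with G536S than with wild type. Of all genes, 0.929% were at least 1.5-fold lower in that comparison. Between G536S and the empty vector the list median was 0.01, and no gene was 1.5-fold apart. The cell cycle inhibitor CDKN1B read 3.71, 3.74 and 3.70 on the G536S, wild-type and empty vector arrays.

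**Figure D4:**
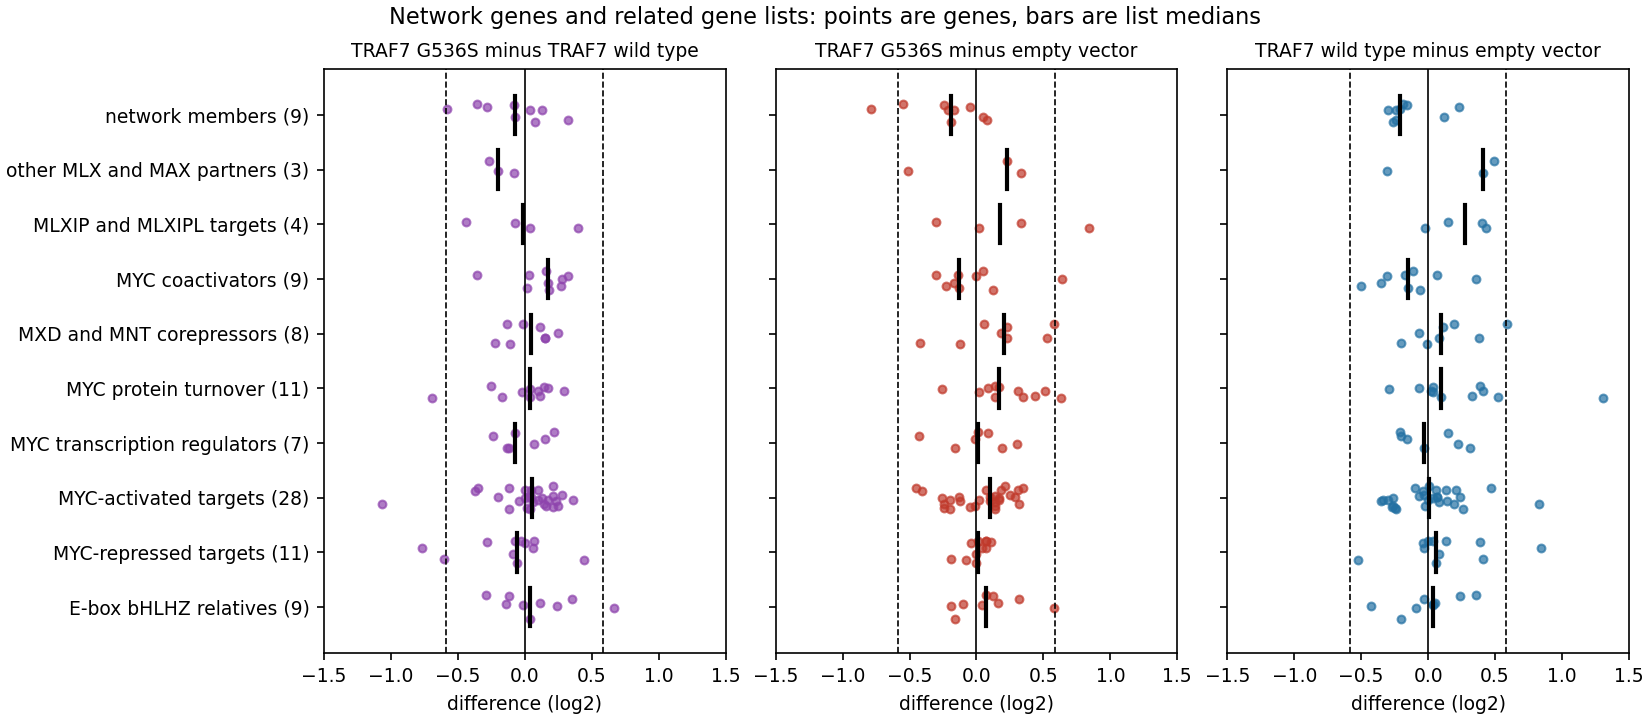
Difference (log2) of each measured gene in the network and in 9 related lists, for the 3 comparisons; points are genes, black bars list medians, dashed lines 1.5-fold, and the number of measured genes stands beside each list name. PPP2R5A (1.31 with wild type minus empty vector) and CCND2 (-1.07 with G536S minus wild type) lie furthest out, and the medians of the 28 MYC-activated targets lie between 0.01 and 0.10.

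Genes that control the stability of the MYC protein held the largest difference of these lists. PPP2R5A, a regulatory subunit of the phosphatase PP2A that favours MYC breakdown, read 3.02 with G536S, 3.71 with wild-type TRAF7 and 2.40 with the empty vector. It was higher than the empty vector by 0.63 with G536S and by 1.31 with wild type, and G536S differed from wild type by -0.69. For G536S against the empty vector, quantile normalization gave 0.47 and cyclic loess 0.51, both below 1.5-fold. The other 10 measured genes of the list were within 1.5-fold in all 3 comparisons. Of all genes, 2.73% were at least 1.5-fold higher with wild type, and 3.05% with G536S, than with the empty vector. Between G536S and wild type, 0.929% were at least 1.5-fold lower. SKP2, an F-box protein that targets MYC, read 7.81, 7.83 and 7.79 on the G536S, wild-type and empty vector arrays, and the ligase HUWE1 read 8.66, 8.36 and 8.34. The list median was 0.17 for G536S and 0.10 for wild type against the empty vector, and 0.04 between the TRAF7 arrays.

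Among genes known to control MYC transcription, none of 7 measured was 1.5-fold apart. In each comparison and direction, 0.911% to 3.05% of all genes were at least 1.5-fold apart. The insulator protein CTCF read 7.37 with G536S, 7.22 with wild-type TRAF7 and 7.39 with the empty vector, and CNBP, which binds the MYC promoter, read 7.61, 7.54 and 7.32 on these arrays. PVT1, the noncoding neighbour of MYC, read 2.67 with G536S, 2.80 with wild-type TRAF7 and 2.83 with the empty vector, a difference of -0.16 for G536S beside the -0.79 of MYC. The list median was 0.01 for G536S and -0.03 for wild type against the empty vector, and -0.07 between the TRAF7 arrays.

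Of the MYC coactivators, 9 of 10 were measured. WDR5, a scaffold that anchors MYC to chromatin, read 3.92 with G536S, 3.64 with wild-type TRAF7 and 3.28 with the empty vector, and was the 1 coactivator at least 1.5-fold apart, with a difference of 0.64 for G536S against the empty vector. Quantile normalization gave 0.47 and cyclic loess 0.50, below 1.5-fold. On the deposited values, 3.05% of all genes were at least 1.5-fold higher in this comparison. Among genes at or above the median gene the share was 6.07%. HCFC1, a chromatin scaffold, read 8.85, 8.58 and 9.08 on the G536S, wild-type and empty vector arrays, and the helicase RUVBL2 read 7.58, 7.94 and 7.88. Medians were -0.13 for G536S and -0.15 for wild type against the empty vector, and 0.17 between the TRAF7 arrays.

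Of the corepressors of MXD and MNT proteins, 8 of 10 were measured. The deacetylase gene HDAC2 read 4.31 with G536S, 4.32 with wild-type TRAF7 and 3.73 with the empty vector. Its difference from the empty vector was 0.59 with wild type, past 1.5-fold, and 0.58 with G536S, just short of it. Both were below 1.5-fold after quantile normalization and cyclic loess. Of all genes, 2.73% were at least 1.5-fold higher with wild type than with the empty vector. HDAC1 read 7.37, 7.21 and 6.84 on the G536S, wild-type and empty vector arrays, and SIN3A, the scaffold that the MXD proteins bind, read 6.67, 6.78 and 6.79. The list median was 0.20 for G536S and 0.10 for wild type against the empty vector, and 0.05 between the TRAF7 arrays.

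As a comparison with E-box binding bHLHZ factors outside the network, 9 relatives were read. TFAP4, a repressor of the inhibitor gene CDKN1A and itself a known MYC target, read 5.21 with G536S, 4.54 with wild-type TRAF7 and 4.63 with the empty vector. It was the 1 relative at least 1.5-fold apart: G536S differed from wild type by 0.67, while MYC differed by -0.58 between the same arrays. Between these arrays 1.11% of all genes were at least 1.5-fold higher with G536S. The difference of TFAP4 between G536S and the empty vector was 0.58, just short of 1.5-fold. USF2 read 5.66, 5.42 and 5.85, and SREBF2, which controls sterol genes, read 5.40, 5.05 and 5.08 on the G536S, wild-type and empty vector arrays. The medians of the relatives were 0.07, 0.04 and 0.04 for G536S against the empty vector, wild type against the empty vector and G536S against wild type, where those of the network were -0.19, -0.21 and -0.07. With 1 array per group this difference between the lists was not tested.

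The protein-coding genes whose values most resembled those of MYC were found by the distance between their 3 centred values, among 10075 genes at or above the median gene. The nearest 5 were DHODH, an enzyme of pyrimidine synthesis (2.86 with G536S, 3.43 with wild-type TRAF7 and 3.61 with the empty vector), the splicing factor gene SF3A2, the HSP70 cochaperone gene BAG3, the RAS GTPase-activating protein gene RASA3 and the G protein subunit gene GNB3. Their distances were 0.0288 to 0.0372 log2 units. Likeness over 3 arrays is a weak description, since 3 values leave little room to differ.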

How the data were processed

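The authors used RMA, per the submitters' processing notes, and deposited a log2 intensity for each probe set. The version of the software, the build and the log base are not stated in the sources used here. Base 2 was inferred: the highest value, 12.57, is above 11.09, the natural log of a 16-bit scanner's maximum. Each group is 1 array of 53617 probe sets. Names came from the platform annotation, with newer symbols taken by Entrez ID from a RefSeq table (GRCh38.p14): 23871 probe sets have 1 gene, 1842 several, and 27904 are unnamed. A gene took the probe set with the highest mean. Differences are the first group minus the second, and counts used 1.5-fold. No test was possible.

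All members were named, with TRAF7; of each other list, genes at least 1.5-fold apart in some comparison and the 2 with the highest mean. PVT1, MLXIPL, SLC7A5, TCF7L2, CEBPA, KRT8 and NEFM were added after their values were seen. Members and lists were chosen with earlier results of these data known. The counting was tested on simulated data. Alternatives tried were averaging all probe sets of a gene, quantile normalization and cyclic loess (limma 3.58.1, R 4.3.3), median centring, raising values under the 25th percentile (0.86) to it, and a filter at the median gene mean (1.21). Other steps used Python 3.11.15, numpy 2.4.6, pandas 2.3.3 and matplotlib 3.10.9.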

Additional observations from a re-analysis of the deposited data

Results flagged for a closer look

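For the genes below, the 2 constructs went opposite ways from the empty vector; with 1 array per group the difference between constructs was not tested. Both values of a gene use the same empty vector array, which cancels in G536S minus wild type. Among network members, MXD3 differed from the empty vector by 0.08 with G536S and by -0.24 with wild type (G536S minus wild type 0.32). MXI1 differed by -0.05 with G536S and by 0.23 with wild type (-0.28). Outside the network, CCND2 was at -0.24 with G536S and 0.83 with wild type (-1.07). GADD45A was at -0.19 with G536S and 0.41 with wild type (-0.60). TFAP4 was at 0.58 with G536S and -0.09 with wild type (0.67). KLF10 was at -0.30 with G536S and 0.15 with wild type (-0.44), where quantile normalization gave 0.02 for wild type. RUVBL2 was at -0.30 with G536S and 0.07 with wild type (-0.36), where quantile normalization gave -0.05 for wild type. SREBF2 was at 0.32 with G536S and -0.03 with wild type (0.35). Among the cell type markers, NEFL was at -0.39 with G536S and 0.25 with wild type (-0.64), INA at 0.10 with G536S and -0.33 with wild type (0.44), and COL1A1 at -0.11 with G536S and 0.02 with wild type (-0.13). After quantile normalization both constructs were on the same side of the empty vector for INA (-0.05 with G536S) and COL1A1 (-0.14 with wild type).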

How the results depend on the processing

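MYC was at least 1.5-fold lower with G536S than with the empty vector under all 5 alternatives run for single members, at -0.93 to -0.75. Quantile normalization and cyclic loess each raised the count of members 1.5-fold apart from 1 to 2 in that comparison, by adding MNT, and from 0 to 1 between G536S and wild type, by adding MYC (-0.64 and -0.60). No member reached 1.5-fold between wild type and the empty vector under any alternative. The network median kept its sign except between G536S and wild type with the mean of probe sets (0.04). Of the 27 member differences, those of MXD1 changed sign in all 3 comparisons under some alternative. Outside the network, quantile normalization also brought HCFC1 (-0.59 for wild type against the empty vector), TCF7L2 (-0.59 for G536S against the empty vector) and CEBPA (-0.63 for wild type against the empty vector) past 1.5-fold, and median centring HDAC2 (0.61) and TFAP4 (0.62) for G536S against the empty vector. Quantile normalization moved the median of genes at or above the median gene to -0.03 (deposited 0.10) for G536S and to -0.02 (deposited 0.08) for wild type against the empty vector. It also turned list medians near 0 below 0: for wild type against the empty vector those of the corepressors, the protein turnover genes, the MYC-activated targets and the E-box relatives, and for G536S those of the transcription regulators and the MYC-activated targets. Averaging probe sets turned the median of the transcription regulators above 0 between the TRAF7 arrays. No paired analysis was possible because each group is 1 array, and no replicate could be left out. Levels near background limit MYCN, MYCL, MXD3 and the second probe set of MXD1.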
